A study of Mus musculus with 2 samples.

Results

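The nuclear genes of the mitochondrial respiratory chain were examined in 2 RNA-seq libraries of early B lineage cells of the mouse. The genes were chosen by name: protein-coding RefSeq transcripts whose mouse gene symbol starts with Nduf, Uqcr, Cox4 to Cox8 or Atp5, or is *Sdha*, *Sdhb*, *Sdhc*, *Sdhd* or *Cycs*. This gave 94 genes with 104 transcripts, of 20250 protein-coding genes in the table. One library came from *Ebf1* -/- pre-pro-B cells, which lack the B cell factor Ebf1 and stay before B lineage commitment. These cells were derived from female embryonic liver and grown with Il-7 (5 ng/mL), Scf (10 ng/mL) and Flt3l (10 ng/mL). The other library came from *Rag2* -/- pro-B cells, which are committed but cannot rearrange their antigen receptor genes. These were derived from adult male bone marrow and grown with Il-7 (5 ng/mL) alone. Both kinds of cells had a C57BL/6 background and were cultured on OP-9 stromal cells, from which they were separated before RNA extraction. Genotype, sex, age, tissue of origin and cytokines thus changed together with the stage, and they cannot be told apart. There was 1 library per cell type, so no difference has a replicate check and no test was made. In bulk RNA, fewer cells of a type and less RNA per cell cannot be told apart.

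The respiratory chain sits in the inner membrane of the mitochondrion. Complex I takes electrons from NADH and complex II takes them from succinate, and both pass them to ubiquinone. Complex III hands them on to cytochrome c, complex IV reduces oxygen with them, and complex V, the ATP synthase, uses the proton gradient that complexes I, III and IV build up. Most subunits are encoded in the nucleus and a few core subunits in mitochondrial DNA, and the latter are outside the rule. Several subunits of complex IV come in alternative isoforms that differ between tissues.

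The levels are FPKM, counts of sequenced fragments scaled to transcript length and library size, which the authors estimated for each RefSeq transcript and which were summed here over the transcripts of a gene. FPKM are per length, so levels can be compared between genes, with less certainty for the 22 members that have near-identical copies elsewhere in the genome. The labels state about 90 M reads per library. At the median length of the member transcripts, 709 nt against 2493 nt for all protein-coding transcripts, an FPKM of 1 corresponds to about 63.9 fragments. This takes all of the about 90 M reads as mapped, so the true number is lower where fewer were mapped. Changes are log2 ratios of pro-B to pre-pro-B cells after adding 1 to both FPKM, which makes the change of low genes look smaller than it is. A level of 1 FPKM or more in at least 1 library was the filter, which 10528 genes and 86 of the 94 respiratory chain genes passed. Below this level were *Ndufs5*, *Atp5g2*, *Cox4i2*, *Cox6b2*, *Cox7b2*, *Cox8b*, *Cox8c* and *Ndufa4l2*. *Cox7a1* passed only through the pro-B library.

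The markers went with the labels. Of 8 early B lineage genes, 7 were higher by 2-fold or more in pro-B cells, and the 8 summed to 418 FPKM in pre-pro-B and 2597 in pro-B cells. *Ebf1*, the gene targeted in the pre-pro-B cells, is 1 of the 7. The 3 progenitor genes *Kit*, *Flt3* and *Cd34* were all higher in pre-pro-B cells, with sums of 944 and 2.82. Genes of other lineages were also measured. Of 8 myeloid genes, 7 were higher in pre-pro-B cells, 5 of them by 2-fold or more (sums of 527 and 7.91, of which *Tyrobp* made up 463 and 1.28). The 3 erythroid genes in the table summed to 0.196 and 0.145. The 13 genes of OP-9 stroma summed to 26.2 and 17.9, and they did not run one way. *Pdgfrb* (15.9 and 0.377) and *Thy1* (5.95 and 0) carried the pre-pro-B sum, whereas 9 of the 13 had the higher level in pro-B cells, among them *Fn1* (1.16 and 5.16), *Cxcl12* (0.618 and 2.92), *Col1a2* (0.707 and 2.82) and *Sparc* (1.13 and 2.81). The matrix genes *Postn* and *Dcn* were listed at 0 in both libraries, and the part of stromal RNA in the differences was not tested. *Ebf1* itself had an FPKM of 64.0 in the library of *Ebf1* -/- cells against 273 in pro-B cells. For *Rag2* the FPKM was 22.9 in the library of *Rag2* -/- cells against 34.5 in pre-pro-B cells, so neither targeted gene was at 0 where it had been targeted. An FPKM takes in every exon of a transcript, also those outside a deleted part.

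Respiratory chain genes were for the most part abundant in both libraries and modestly higher in pro-B cells. The summed FPKM of the 94 genes was 7559 in pre-pro-B cells, 2.42% of all protein-coding FPKM, and 9628 in pro-B cells, 2.84%. In pre-pro-B cells 74 of the 94 genes were at 10 FPKM or more and 25 at 100 or more, against 79 and 34 in pro-B cells. The order of the levels was much the same in both libraries (Spearman's rho of 0.94 across the 87 genes above 0 in both, a description across genes of a single pair of libraries). Among the 86 genes past the filter the median log2 change was 0.39, a 1.31-fold higher level in pro-B cells, while the median over all 10528 genes was -0.14. Of the 86 genes, 71 were higher in pro-B cells (82.6%), beside 42.6% of all genes. In TPM, where more genes pass the filter, these were 62 of 88 (70.5%) beside 37.8%. The median of all genes shifted by -0.14 when both libraries were rescaled to the same total (TPM), and by 0.08 with a scaling by the median ratio. The median of the respiratory chain genes minus that of all genes was 0.53 as deposited, 0.53 in TPM and 0.52 after the median-ratio scaling. It was 0.47 among genes at 10 FPKM or more in a library and 0.31 with no filter, where the median of all genes is 0.

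Most of these differences were small. At 2-fold, counted like the log2 changes with 1 added to both FPKM, 10 of the 86 genes were higher in pro-B cells (11.6%), beside 12.2% of all genes, a share near the background. *Ndufa11* (2.999 and 6.74) was past 2-fold only without the added 1. Only 1 of the 86, *Cox6a2*, was at least 2-fold lower (1.16%), beside 19.1% of all genes. At 1.5-fold, 30 genes were higher (34.9%), beside 20.1% of all genes, and 2 genes, *Cox6a2* and *Cox7a2l*, were lower (2.33%), beside 29.8%. The intervals of the deposited FPKM, 95% confidence intervals from Cuffdiff's model, were wide, with an upper limit a median of 23.2 times the lower one in pre-pro-B and 14.5 times in pro-B cells over the 77 member transcripts with lower limits above 0. These intervals carry no spread between cultures. They did not overlap for 1 of the 104 member transcripts, *Cox7a1*, which was higher in pro-B cells, beside 0.674% of all transcripts. Its pre-pro-B interval was 0 to 0, which cannot overlap an interval with a lower limit above 0, so this single case follows from the listed 0. No member transcript was lower with intervals apart, beside 1.45% of all transcripts. Across the 86 genes, transcript length and log2 change had a Spearman's rho of -0.14, given as a description.

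Promoter sequence was looked at because most of these genes had small log2 changes of the same sign. The table of RefSeq promoters on GRCm38.p6, each with 250 bases before and 50 after the start site, held 82 promoters of 77 of the 94 genes. Promoters of the same gene can overlap, so that the same stretch is counted more than once, as for *Ndufa7* and *Ndufa5*. The motifs searched, on both strands, are those of factors known to act on respiratory genes. For NRF1, the nuclear respiratory factor, the palindrome of GCGC, AT and GCGC was found in 7 of 82 promoters (8.54%), beside 1.40% of the 19816 promoters of all genes and 2.25% of the 10910 promoters of genes past the filter. The 7 stretches are shown because they are the closest matches to this motif among the respiratory chain genes; the capitals mark the motif, and each stretch is 30 bases, written in the direction of the gene.
Atp5k (chr5:108434430-108434459, minus strand): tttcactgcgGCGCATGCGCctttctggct
Cox6a1 (chr5:115349101-115349130, minus strand): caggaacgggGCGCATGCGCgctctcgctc
Ndufaf4 (chr4:24897960-24897989, plus strand): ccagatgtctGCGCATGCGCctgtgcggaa
Ndufaf5 (chr2:140170652-140170681, plus strand): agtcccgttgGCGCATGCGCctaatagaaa
Ndufa11 (chr17:56717692-56717721, plus strand): cctgcactgcGCGCATGCGCgcacgccttg
Uqcrc1 (chr9:108936668-108936697, plus strand): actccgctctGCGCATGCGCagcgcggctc
Atp5g2 (chr15:102671070-102671099, minus strand): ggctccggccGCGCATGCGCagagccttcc

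The first base of the motif lay 50 bases before the start site in *Atp5k*, 60 in *Ndufa11*, 113 in *Ndufaf4* and 162 in *Cox6a1*, and 31 bases into the transcript in *Uqcrc1*. Of the 7 genes, *Atp5g2* did not reach an FPKM of 1, and the other 6 had log2 changes from 0.20 (*Uqcrc1*) to 1.93 (*Ndufaf4*), with a median of 0.95, beside 0.37 for the 66 genes past the filter with a promoter and no match. With the A of this palindrome left open to any base, a search that takes in the palindrome, 20 of 82 promoters matched (24.4%), beside 6.72% of all and 10.9% of those past the filter, and the medians were 0.63 for the 17 genes with a match and 0.38 for the 55 without. CCGGAAG, read by GABP and other Ets factors, was in 19 of 82 promoters (23.2%), beside 12.0% and 18.9% in the same order, with medians of 0.44 and 0.30. ATGGCGGC, a YY1 motif that can hold a start codon, was in 8 of 82 (9.76%), beside 3.17% and 5.20%, with medians of 0.11 for the 7 genes with a match and 0.40 without. The ERR motif TCAAGGTCA was in 2 of 82 (2.44%), those of *Atp5g3* and *Sdhd*, beside 0.328% and 0.266%, with medians of 0.22 and 0.39. The E box CACGTG was in 7 of 82 (8.54%), beside 8.18% and 10.3%, with medians of 0.17 for the 6 genes with a match and 0.40 without. The genes with a match thus had the higher median for NRF1 and GABP and the lower one for YY1, ERR and the E box. The 75 promoters of mitochondrial ribosomal proteins, a similar set, held CCGGAAG at 34.7% and ATGGCGGC at 16%, both above the shares in the respiratory chain, and the NRF1 palindrome at 4% and its open form at 17.3%, both below. They held the E box at 9.33%, and 0 of the 75 had the ERR motif. The differences in shares were not tested. A match is a description of the letters and not a sign that a factor was bound.

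In complex I, 31 of 35 subunits past the filter had a higher level in the pro-B library, 13 of them by 1.5-fold or more, with a median log2 change of 0.40 and sums of 2298 FPKM (pre-pro-B) and 2961 FPKM (pro-B), 1.29-fold. The core subunits of the peripheral arm are encoded in the nucleus, and among them they carry the flavin and the iron-sulfur clusters along which electrons move. *Ndufs1*, the largest subunit, stood at 51.2 FPKM in pre-pro-B and 88.8 in pro-B cells. *Ndufs3* had 11.9 and 20.6, and *Ndufs8* had 26.9 and 45.7. These genes, each higher by 1.5-fold or more in pro-B cells, stood beside *Ndufv2* with 112 and 168, just under that limit. Smaller differences were those of *Ndufv1*, the site where NADH is oxidized, with 36.4 and 40.1, and of *Ndufs7* with 52.4 and 52.3.

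The accessory subunits surround this core. Including the core, the 16 subunits of the peripheral arm, which reaches into the matrix, had a median log2 change of 0.56, and the 18 of the membrane arm had 0.37; the difference between the arms was not tested. *Ndufa5* of the peripheral arm (chromosome 6 of mm9, 24468666 to 24478013, minus strand) had the highest log2 change of complex I, 1.15, with 73.2 FPKM (interval 2.73 to 174) in the pre-pro-B and 163 FPKM (interval 12.7 to 356) in the pro-B library. *Ndufb8* of the membrane arm (chromosome 19, 44618212 to 44627321, minus strand) had 48.6 (interval 1.66 to 101) and 100.1 (interval 14.4 to 186), a log2 change of 1.03. It shares its strand and part of its locus with *Sec31b*, whose FPKM was 0.658 and 0.0572. These were the members of complex I past 2-fold after the added 1, and their intervals overlapped between the libraries. *Ndufa11* of the membrane arm had 2.999 and 6.74, which is 2.25-fold higher as plain FPKM and a log2 change of 0.95 with the added 1. *Ndufb3* (28.5 and 56.8) and *Ndufb6* (21.7 and 43.2) lay just under 2-fold. The lowest log2 change was that of *Ndufa3*, a small membrane arm subunit, at -0.46. It was also the most abundant complex I gene in pre-pro-B cells, at 226 FPKM, against 163 in the pro-B library. *Ndufv3* had 180 and 195. *Ndufa1* and *Ndufb11* are on the X chromosome, and the libraries differ in sex: *Ndufa1* had 25.4 and 33.0, and *Ndufb11* 61.2 and 46.7.

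The 8 assembly factors in the Nduf family help to build complex I and are not part of the finished enzyme. They were less abundant than the subunits, with medians of 8.68 FPKM in pre-pro-B and 16.6 in pro-B cells against 52.4 and 74.9 for the 35 subunits. Log2 changes of the 8 ran from 0.02 (*Ndufaf6*) to 1.93 (*Ndufaf4*), with a median of 0.58 and a sum of 83.9 in pre-pro-B and 149 in pro-B cells (1.77-fold). *Ndufaf4* (chromosome 4, 24825230 to 24832148, plus strand) stood at 9.08 FPKM (interval 1.02 to 17.1) in the pre-pro-B library and 37.5 FPKM (interval 8.47 to 66.5) in the other, 4.13-fold higher. Its partner *Ndufaf3*, which acts with it on the part of the enzyme near the ubiquinone site, had 8.27 (interval 0.370 to 16.2) and 21.0 (interval 2.33 to 39.5), 2.54-fold higher. *Ndufaf2*, a factor of late assembly, had 5.68 (interval 0 to 25.3) and 16.1 (interval 0.232 to 57.9), 2.83-fold higher. These 3 genes were the assembly factors past 2-fold, and the intervals of each overlapped. *Ndufaf5*, an enzyme that modifies *Ndufs7* protein, had 5.72 and 10.5. *Ndufaf1* had 21.9 and 28.6, and *Ndufaf7*, *Ndufaf8* and *Ndufaf6* had nearly equal levels (12.7 and 13.1, 15.7 and 17.1, and 4.93 and 5.00).

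Complex II is also an enzyme of the citric acid cycle and consists of 4 nuclear subunits. As a whole it was not higher in pro-B cells: the median log2 change was -0.07, which became 0.02 after the median-ratio scaling, and the summed FPKM was 442 in pre-pro-B and 414 in pro-B cells. The median of all genes was lower in both settings, at -0.14 as deposited and -0.05 after the median-ratio scaling. *Sdhb*, the iron-sulfur subunit, had 70.3 and 97.1 (log2 change 0.46). *Sdhd*, a membrane anchor, had 153 and 109 (log2 change -0.49). The flavin subunit *Sdha* had 127 and 118, and the other anchor *Sdhc* had 91.5 and 89.8. No subunit reached 1.5-fold as deposited, though *Sdhd* did in TPM with a log2 change of -0.61. The median of the complex was -0.19 in TPM, beside -0.27 for all genes, and the difference between complex II and the other complexes was not tested.

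Of the 8 subunits of complex III, 7 were higher in pro-B cells, with a median log2 change of 0.35 and sums of 611 and 804. The order of levels was led by *Uqcrh*, the hinge protein near cytochrome c1, at 282 FPKM in pre-pro-B and 383 in pro-B cells. The core proteins *Uqcrc1* (38.1 and 43.9) and *Uqcrc2* (87.8 and 94.7) differed little, and the Rieske iron-sulfur protein *Uqcrfs1* had 58.8 and 87.7. The highest log2 changes belonged to small subunits, *Uqcrq* at 0.94 (17.4 and 34.1) and *Uqcr10* at 0.85 (36.4 and 66.6). *Uqcrb* had the lowest, -0.06 (66.2 and 63.5), which became 0.03 after the median-ratio scaling. *Cycs*, the electron carrier between complexes III and IV, was listed at 2.51 and 1.98, while *Cyc1*, the cytochrome c1 subunit of complex III that the name rule leaves out, had 26.3 and 38.2.

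Complex IV held the widest differences. Of its 20 genes, 14 passed the filter, with a median log2 change of 0.45. This median was 0.28 in TPM and 0.19 over all 20 genes with no filter. The 11 that are neither tissue isoforms nor supercomplex factors had a median of 0.50, and their sum was 1524 in pre-pro-B and 2163 in pro-B cells (1.42-fold). *Cox5b* (chromosome 1, 36748332 to 36750230, plus strand), a matrix-side subunit, had an FPKM of 20.4 (interval 0.139 to 47.5) and 57.4 (interval 2.22 to 117), 2.81-fold higher in pro-B cells. *Ndufa4* (chromosome 6, 11850373 to 11857446, minus strand), first assigned to complex I and now counted as a complex IV subunit, had 77.3 (interval 11.6 to 143) and 169 (interval 33.1 to 302), 2.19-fold higher. The intervals of both genes overlapped between the libraries. The most abundant subunits were *Cox6c* (356 and 535), *Cox6b1* (312 and 411) and *Cox4i1* (283 and 312). *Cox5a* had 52.2 and 74.4, and the X-linked *Cox7b* had 160 and 188.

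**Figure D1:**
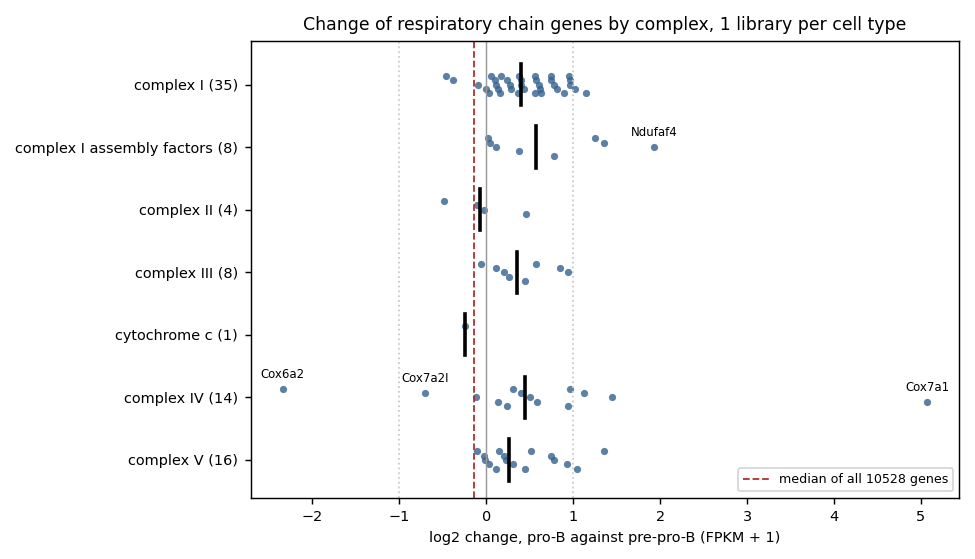
Log2 change of each gene past the filter, pro-B against pre-pro-B with 1 added to both FPKM, by complex with the number of genes in brackets; black bars are medians, dotted lines mark 2-fold and the dashed red line is the median of all 10528 genes at -0.14. All medians except those of complex II (0.02 after the median-ratio scaling) and cytochrome c lie above 0, and the place of *Cox7a1*, listed at 0 in pre-pro-B cells, depends on the added 1.

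Isoform use differed most for subunit 6a. *Cox6a2* (chromosome 7, 135348950 to 135349880, minus strand) is the isoform known from heart and skeletal muscle and *Cox6a1* the one of most other tissues. *Cox6a2* stood at 246 FPKM (interval 22.5 to 477) in the pre-pro-B and 47.8 FPKM (interval 1.36 to 102) in the pro-B library, 5.14-fold lower in pro-B cells, and ranked 118 among all genes in the pre-pro-B library and 1532 in the other. *Cox6a1* went the other way, with 59.8 (interval 8.38 to 111) and 116 (interval 22.0 to 209). The muscle isoform thus made up 80.4% of the summed 6a FPKM in pre-pro-B and 29.3% in pro-B cells, and was present in both. The *Cox6a2* locus overlaps *Itgad* on the opposite strand, whose FPKM was 0.504 and 0.171, and no near-identical copy of the *Cox6a2* transcript was found elsewhere in the genome. Genes of plasmacytoid dendritic cells were also looked at, in a list of 10 chosen after values were seen, which therefore gives no support for a source of *Cox6a2*. Of the 10, 7 were 2-fold or more higher in pre-pro-B cells, among them *Siglech* (54.3 and 0.236), beside 19.1% of all genes. The other way went 2, *Tcf4* and *Spib*. The list summed to 533 and 200, beside the myeloid sums above and erythroid sums of 0.196 and 0.145. The part of such genes in the result was not tested.

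Subunit 7a changed in its make-up as well. *Cox7a1* (chromosome 7, 30969190 to 30971047, plus strand), the heart and muscle isoform, was listed at 0 (interval 0 to 0) in the pre-pro-B library and at 32.6 FPKM (interval 1.40 to 63.8) in the other. *Cox7a2*, the common isoform, had 68.1 and 134. *Cox7a2l*, a relative that joins complexes III and IV into supercomplexes, had 201 and 123 and was 1.63-fold lower in pro-B cells. Of the summed FPKM of the 3 genes, *Cox7a2l* held 74.7% in pre-pro-B and 42.5% in pro-B cells, *Cox7a2* 25.3% and 46.2%, and *Cox7a1* 0% and 11.3%. A near-identical copy elsewhere in the genome covers 99.4% of the *Cox7a2l* transcript, so its level and these shares are uncertain. The muscle isoforms of 6a and 7a therefore differed in opposite directions between the libraries. The other complex IV isoforms showed no such exchange. *Cox4i1* made up 99.9% and 100% of its pair, with *Cox4i2* at 0.158 and 0, and *Cox8a* (129 and 160) made up 99.6% and 99.8% of its group, with *Cox8b* at 0.497 and 0.387. *Cox6b2*, *Cox7b2* and *Cox8c*, known from testis, and *Ndufa4l2*, known from hypoxic cells, were listed at 0 in both libraries.

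**Figure D2:**
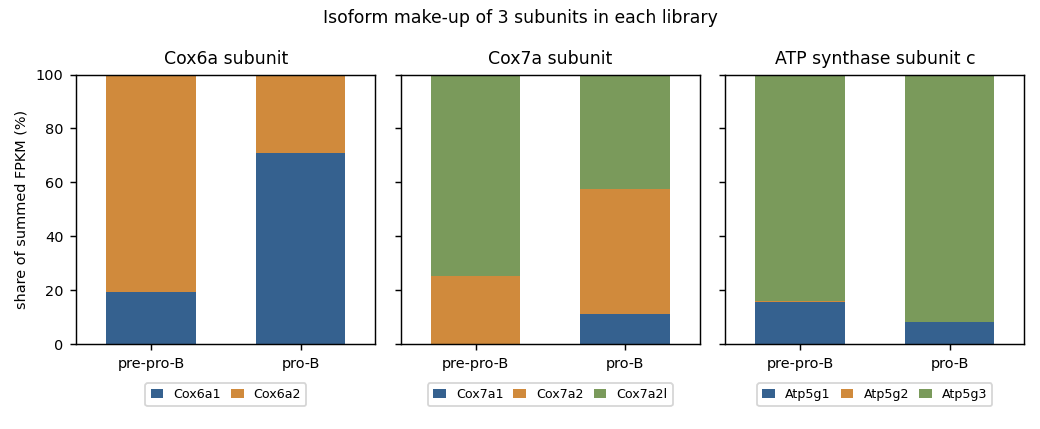
Share of each isoform in the summed FPKM of its group, in percent, in the pre-pro-B and the pro-B library, for subunit 6a and subunit 7a of complex IV and subunit c of the ATP synthase. *Cox6a2* goes from 80.4% to 29.3%, *Cox7a2l* from 74.7% to 42.5%, and *Atp5g3* from 83.9% to 91.7%. *Cox7a2l*, *Atp5g1* and *Atp5g2* have near-identical copies elsewhere in the genome, so the shares in their groups are uncertain.

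In complex V, 13 of 16 subunits past the filter had the higher level in pro-B cells, with a median log2 change of 0.27 and sums of 2149 and 2931 (1.36-fold). The median was 0.11 in TPM and 0.51 over the 9 subunits with no near-identical copy elsewhere in the genome. The main subunits of the catalytic head hardly differed. Its alpha subunit *Atp5a1* stood at 374 FPKM in pre-pro-B and 383 in pro-B cells, and its beta subunit *Atp5b* had 293 and 289. The gamma subunit *Atp5c1*, the rotating shaft, had 188 and 324 (log2 change 0.78), and the small epsilon subunit *Atp5e* had 91.0 and 130.1 (log2 change 0.51). With *Atp5d* (29.5 and 31.9) the 5 genes of the head had a median of 0.11. The 4 genes of the peripheral stalk had a median of 0.25, from *Atp5h* at 0.14 (34.2 and 37.8) to *Atp5j* at 0.44 (159 and 217). The 5 small subunits of the membrane sector, several of which help ATP synthase to form dimers, had a median of 0.74 and sums of 713 and 1160. *Atp5mpl*, a proteolipid of this sector, was the most abundant respiratory chain gene of the pro-B library, with 571 against 341 in pre-pro-B cells. *Atp5k*, subunit e (chromosome 5, 108862263 to 108863467, minus strand), had 174 (interval 10.3 to 253) and 361 (interval 29.9 to 496), 2.07-fold higher in pro-B cells. *Atp5l*, subunit g (chromosome 9, 44721333 to 44728825, minus strand), had 2.25 (interval 0 to 4.47) and 7.34 (interval 0.154 to 14.5), 3.26-fold higher, at a far lower level than its neighbour subunit e. *Atp5md* was alone in this sector in not being higher (50.9 and 50.3). The differences between the parts of the enzyme were not tested.

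Subunit c, which forms the rotor ring, is made from 3 genes that encode the same mature protein with different import sequences. *Atp5g3* had 61.1 and 118 and made up 83.9% and 91.7% of the sum, *Atp5g1* had 11.4 and 10.5 (15.6% and 8.16%), and *Atp5g2* had 0.332 and 0.231 (0.456% and 0.180%). *Atp5g1* was the only member with several transcripts whose most abundant transcript was not the same in both libraries. Its transcript NM_001161419 had 11.4 (interval 0 to 28.8) and 4.57 (interval 0 to 16.1), and NM_007506 had 0 (interval 0 to 0.145) and 5.90 (interval 0 to 17.8). Transcripts of *Ndufs8* also differed, with NM_144870 at 0.0399 and 14.9 and NM_001271444 at 5.23 and 0, while NM_001271443 led in both libraries with 21.7 and 30.8.

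A few members that are neither assembly factors nor tissue isoforms were listed at low levels, and most of these have near-identical copies elsewhere in the genome. Each member's transcript in an mm9 annotation was aligned to the mm9 genome, and stretches of at least 97 bases, the read length, at 97% identity or more outside its own locus were counted as copies. Of the 78 members that are neither assembly factors nor tissue isoforms, 21 had such a copy and 57 had none. The 21 include *Ndufc1*, whose 33 copies cover 9.61% of an aligned transcript of 1249 nt, against 414 nt in RefSeq. Whether these copies match the RefSeq transcript was not checked. Members with a copy had medians of 25.1 FPKM (pre-pro-B) and 37.8 FPKM (pro-B), and those without had 70.3 and 100.1. An FPKM under 10 in both libraries was found for 6 of the 21 and for 2 of the 57. The 6 were *Ndufs5*, *Atp5g2*, *Atp5l*, *Ndufb4*, *Cox7c* and *Cycs*, and the 2 were *Ndufa11* and *Ndufab1*. *Ndufs5*, a membrane arm subunit, was listed at 0 in pre-pro-B and at 4.91e-05 in pro-B cells, and 96% of its transcript matched 1 place on chromosome 16 (42955673 to 42956176 of mm9) over 504 bases at 99.6% identity. For *Atp5g2* the matched part was 100% with 3 copies, and for *Atp5l* it was 92.6% with 4 copies. *Cycs* had 22 copies over 44.5% of its transcript, *Cox7c* 3 copies over 54.0%, and *Ndufb4* 2 copies over 49.8%, with levels of 6.93 and 6.29 for *Cox7c* and 1.32 and 1.18 for *Ndufb4*. These percents are of the aligned transcript. For *Ndufb4* it was 971 nt long, against 454 nt for the RefSeq transcript whose level was measured. The copies of *Ndufb4* matched over 476 and 457 bases, each longer than that RefSeq transcript. A copy did not always go with a low level: *Cox7a2l* had 1 copy over 99.4% of its transcript and an FPKM of 201 and 123, and *Cox5b* had 2 copies over 87.8%. For genes with copies the reads can be divided among loci, so their levels are uncertain, and how much of each low level comes from this was not tested. Over the 66 genes past the filter with no copy, the median log2 change was 0.45.

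**Figure D3:**
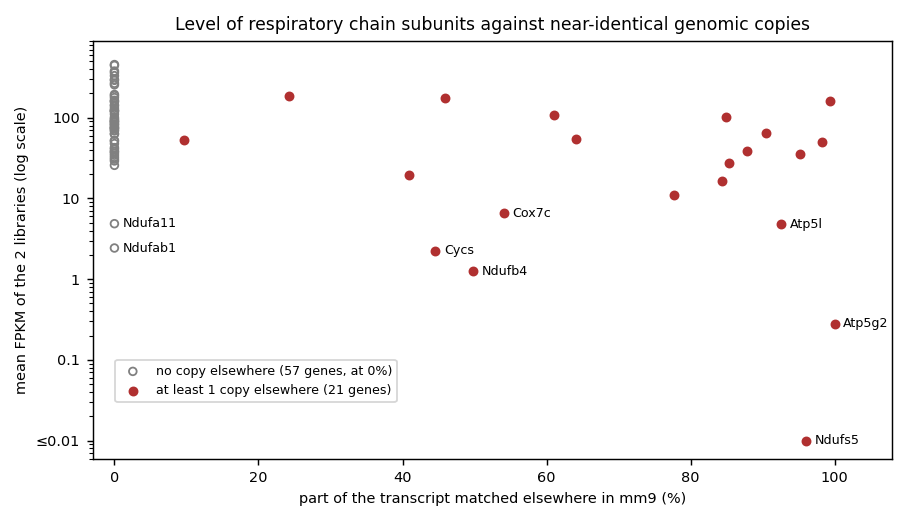
Mean FPKM of the 2 libraries on a log axis against the percent of the transcript that matches elsewhere in mm9, for the 78 members that are neither assembly factors nor tissue isoforms; red points have at least 1 copy and open grey points have none. The 8 named points are the genes under an FPKM of 10 in both libraries, 6 with a copy and 2 without. The percent is of the aligned transcript, which for *Ndufb4* has 971 nt, against 454 nt in RefSeq.

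Other genes of the pathway, taken from 5 lists, had a median change near 0 as a group, above the median of all genes. Of 97 genes in the table that are no members, 92 passed the filter. The median log2 change was -0.04, beside -0.14 for all genes, and 47.8% were above 0, beside 42.6%. This median became 0.04 after the median-ratio scaling (all genes -0.05) and -0.12 in TPM (all genes -0.27). Among the 64 genes at 10 FPKM or more in a library it was 0.11 (all genes -0.07). Of the 92 genes, 6 were 2-fold or more higher in pro-B cells (6.52%) and 2 lower (2.17%), beside 12.2% and 19.1% of all genes. These counts too are with the added 1; as plain FPKM, *Lyrm7* (2.76 and 1.09), *Mpc1*, *Esrra* and *Suclg1* (81.5 and 40.5) were also more than 2-fold lower. The 30 genes for assembly and remaining subunits of complexes III and IV had a median of -0.09, with 0 higher and 1 lower, the assembly factor *Coa4* (8.86 and 2.82). The highest of them was *Cox18*, an insertase for a subunit encoded in mitochondrial DNA, with 2.88 and 5.67. The 14 genes for assembly of complexes I, II and V had a median of 0.16, with 2 higher. Both are factors of complex II: *Sdhaf2*, which attaches the flavin to *Sdha* protein, had 20.8 and 67.3, and *Sdhaf3* had 3.73 and 9.24. The complex I factor *Tmem126b* was the lowest of the list, with 16.9 and 9.88.

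Of 20 genes for transcription and copying of mitochondrial DNA and its regulators, 17 passed the filter, with a median of -0.01 (0.06 after the median-ratio scaling), 1 higher and 0 lower with the added 1. *Gabpb1*, a subunit of the GABP factor, had 17.7 and 44.1, while its DNA-binding partner *Gabpa* had 55.5 and 57.7. *Nrf1* had 23.6 and 32.6, and *Tfam*, which packs and transcribes mitochondrial DNA, had 38.5 and 47.3. The coactivator *Ppargc1a* was listed at 0 in both libraries and *Ppargc1b* had 0.430 and 0.532. The lowest log2 change was that of the nuclear receptor *Esrra*, with 7.88 and 3.86, 2.04-fold lower as plain FPKM. Of the 22 genes of the citric acid cycle and pyruvate dehydrogenase past the filter, *Fh1* (77.3 and 164) and *Idh3b* (41.7 and 93.6) were at least 2-fold higher and *Pdk2*, an inhibitor of pyruvate dehydrogenase, was lower (10.2 and 2.33), with a median of 0.11 that was -0.00 in TPM. Among 9 carriers and channels the median was -0.00 (0.09 after the median-ratio scaling), and *Ucp2*, an inner membrane carrier of the uncoupling protein family, stood out with 78.9 and 789. *Mpc1*, a subunit of the pyruvate carrier, had 3.55 and 1.53.

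Ribosomal proteins were set beside the respiratory chain as large sets of similar genes. The 78 mitochondrial ribosomal proteins had a median log2 change of 0.24, with 5 at least 2-fold higher and 2 lower, and 53 above 0 (67.9%). Of the cytosolic ribosomal proteins, 85 of 91 passed the filter, with a median of -0.21, 2 higher and 12 lower, and 26 above 0 (30.6%). Of all genes past the filter, 12.2% were at least 2-fold higher, 19.1% lower and 42.6% above 0. The sums were 2011 and 2452 for the mitochondrial and 21663 and 18843 for the cytosolic set. The respiratory chain genes, at 0.39, lay above both medians, and the differences between the sets were not tested.

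**Figure D4:**
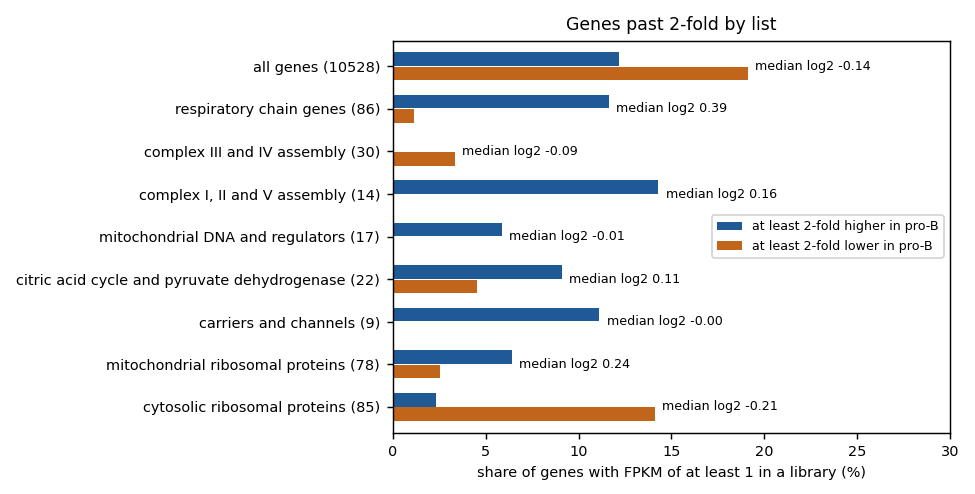
Percent of the genes past the filter that were at least 2-fold higher (blue) or lower (orange) in pro-B than in pre-pro-B cells, for all genes, the respiratory chain genes, 5 lists of the pathway and both kinds of ribosomal proteins, with the number of genes in brackets and the median log2 change beside the bars. Respiratory chain genes have 11.6% higher and 1.16% lower, and all genes 12.2% and 19.1%.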

How the data were processed

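Total RNA depleted of ribosomal and small RNA was sequenced as strand-specific single-end reads of 97 bases. The authors aligned the reads to mm9 with TopHat (version 1.5 in the submitters' processing notes, 1.4.0 in the parameter file of the study) and estimated the deposited FPKM of each RefSeq transcript, with limits of a 95% interval and a status, with Cuffdiff 2.1.1, using multi-read correction and no scaling between the libraries. The status was OK for all 104 member transcripts. A further deposited table holds the authors' fold changes and p-values; it was not used, and 2 per-sample columns in it were left out.

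FPKM of the 26968 protein-coding transcripts were summed per gene. Symbols came from a RefSeq table of GRCm38.p6, used for names only, which named 26173 of 26580 accessions; none of the 407 unnamed ones lay at the locus of a member. Gene coordinates are those of GENCODE vM1 on mm9. Log2 ratios used a pseudocount of 1 and genes with a summed FPKM of at least 1 in a library. Copies were searched with BLAST 2.17.0. Scripts ran under Python 3.11.15 with pandas 2.3.3, numpy 2.4.6, matplotlib 3.10.9 and scipy 1.17.1.

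The members and lists were chosen with earlier results of these data known. Named were the members past 2-fold, the 3 most abundant and the extreme members of each complex, the isoform groups, members at 0 in 1 library or with a switch of main transcript, the core subunits of complex I, and the extremes of each pathway list with *Cyc1*, *Tfam*, *Nrf1*, *Gabpa*, *Ppargc1a* and *Ppargc1b*; others were named after their values were seen, and 1 gene that the rule names is not reported here. Alternatives were other pseudocounts, filters, scalings, transcript choices and member sets.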

Additional observations from a re-analysis of the deposited data

Results flagged for a closer look

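A signal appeared in entries that the comparisons leave out, the non-coding RefSeq entries that carry the name of a member. *Ndufs5-ps*, a processed copy of *Ndufs5* on chromosome 16 (42955693 to 42956192 of mm9), stood at 39.4 FPKM (interval 0.474 to 44.4) in the pre-pro-B and 81.6 FPKM (interval 13.0 to 146) in the pro-B library, while *Ndufs5* itself was listed at 0 and 4.91e-05. This entry lies at the one place that matches the *Ndufs5* transcript. The non-coding transcript of *Ndufs6* had 3.35 (interval 0 to 15.4) and 5.01 (interval 0 to 21.8), beside 31.1 and 37.7 for its coding transcript at the same locus. With about 90 M reads, all taken as mapped, 3 fragments would give an FPKM of 0.0667 for *Ndufs5-ps* and 0.0588 for the *Ndufs6* transcript. All 4 values lie above this limit that a count of 0 allows, for counting error only. The limit does not cover the split of reads between transcripts of a locus. Both intervals of the *Ndufs6* transcript reach down to 0, so its presence is uncertain. No cause was tested.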

How the results depend on the processing

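The median log2 change of the respiratory chain genes stayed above 0 under all 10 alternatives, from 0.26 in TPM to 0.46 with the median-ratio scaling, and was 0.31 with no filter. The counts moved by more than 1.5 times in these cases: 17 genes at least 2-fold higher with the median-ratio scaling and 6 among subunits of a finished complex; 2 at least 2-fold lower with the most abundant transcript (*Atp5g1* added) and 0 among subunits of a finished complex; and 4 at least 1.5-fold lower in TPM, 1 among genes with a single transcript, 1 among members without a copy and 0 among subunits of a finished complex. The cytosolic ribosomal proteins had a median of -0.34 in TPM, and the share of *Atp5g1* in pro-B cells was 3.73% with the most abundant transcript. *Atp5k* (0.93) and *Ndufb8* (0.92) fell under 2-fold in TPM. The restricted sets hold fewer genes. *Cox6a2* and *Cox7a2l* are not among the subunits of a finished complex. *Cox7a2l* is also outside the genes with a single transcript and the members without a copy. The causes of these moves were not tested. Depth was taken only as about 90 M reads per library, and the mapped reads that the study lists for its libraries were not used. With 1 library each no spread between cultures is known. No paired analysis was possible because each cell type has 1 library.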
